A study of Erythranthe guttata with 80 samples.

Results

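A set of 5 sodium homeostasis genes, out of 28140 genes counted, was followed across 8 groups of yellow monkeyflower (Mimulus guttatus) plants. By the study's annotation, Migut.E00570 is the ortholog of SOS1 and Migut.L01905 that of HKT1. Migut.N02833 is that of CIPK8, Migut.A00138 that of CBL10 and Migut.F00215 that of SOS3. The study had picked them from a longer list of sodium candidates because they were expressed well enough for a test. All 5 were kept by the filter on low counts in each fit used here, so that filter removed none. The other candidates of the pathway were not analysed here.

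The study compared a coastal perennial ecotype, which grows under ocean salt spray, with an inland annual ecotype that flowers before the summer drought. The coastal perennial plants came from accession SWB-4 and the inland annual plants from accession LMC-17, both raised as self-fertilised families. Leaves of SWB-4 were sampled at the 2leaf, 4leaf, 6leaf and 8leaf stages and floral buds at the bud stage, and LMC-17 was sampled at 2leaf, 4leaf and bud, since it flowers at an earlier node. Each group held 10 plants with 1 tissue sample per plant, for 80 libraries, so that the spread within a group is the spread between separate plants of 1 family. All plants were grown in the same chamber conditions, and no salt treatment was listed for any group. With 1 accession per ecotype, a difference of the line cannot be told apart from one of the ecotype.

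In Arabidopsis thaliana, where this pathway is best known, a rise of sodium in the cell raises calcium, and calcineurin B-like proteins (CBL) sense that calcium. A CBL protein then recruits a CBL-interacting protein kinase (CIPK), and the pair activates the sodium/proton antiporter SOS1, which pumps sodium out across the plasma membrane. SOS3 is the sensor best known from roots, CBL10 the one best known from shoots, and CIPK8 is a kinase that can work with CBL10. HKT1 moves sodium in the other direction, into cells, and in Arabidopsis takes it out of the xylem sap before it reaches the leaves.

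Library totals ran from 1256776 to 6090402 counts, with a median of 3839604, and levels are given as CPM, the count of a gene relative to the size of its library after TMM scaling over the 80 libraries. Each transcript was read at its 3′ end, so CPM was not divided by length, and levels were not compared between genes. The summed level of 7 photosynthesis hub genes was 2977 to 7282 CPM in leaf libraries and 326 to 795 CPM in bud libraries. That of 5 hub genes of a cell wall module was 2.30 to 22.1 CPM in leaves and 226 to 3745 CPM in buds. All hub genes were detected in every group. The study had chosen these hubs on the same samples. Leaf and bud are different tissues, and in such bulk samples fewer cells of a type and less RNA per cell cannot be told apart. The reads were aligned to a single reference line, and whether reads of either accession aligned less well over these genes was not tested.

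Of the 5 genes, SOS1, the antiporter of the plasma membrane, had the largest ecotype difference at the 2leaf stage. In coastal perennial plants at 2leaf, SOS1 ran from 24.5 to 43.8 CPM with a median of 39.3. In inland annual plants of the same stage it ran from 5.93 to 12.8 CPM with a median of 10.2. Every coastal plant lay above every inland plant at this stage. The log2 fold change (LFC) was 2.00 ± 0.13 (standard error), which is 3.99-fold, with an adjusted p of 8.3e-20 (edgeR quasi-likelihood F test, Benjamini-Hochberg over the 16735 genes tested).

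The same order held at 4leaf, where SOS1 ran from 20.1 to 31.5 CPM in coastal plants and from 6.11 to 13.8 CPM in inland plants. Here too the groups did not overlap, and the LFC was 1.42 ± 0.13 (2.68-fold, adjusted p = 3.42e-14). Across all genes, 13.4% had groups that did not overlap at 2leaf and 13.8% at 4leaf. In buds the picture was another one. Coastal buds ran from 25.5 to 40.01 CPM with a median of 28.5, and inland buds from 25.6 to 37.98 CPM with a median of 30.3. These ranges lay almost on top of each other. The LFC in buds was -0.05 with a 95% interval of -0.29 to 0.19 (adjusted p = 0.709), so a bud difference as large as that of the leaves lay outside the interval.

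HKT1, the sodium importer, was higher in coastal plants at all 3 shared stages, although its counts were far lower. At 2leaf it ran from 2.56 to 11.1 CPM in coastal plants (median 7.09) and from 0.961 to 6.94 CPM in inland plants (median 4.14). These groups overlapped, and the LFC was 0.98 ± 0.32 (1.97-fold, adjusted p = 0.00776). At 4leaf the coastal plants ran from 3.11 to 9.36 CPM and the inland plants from 0.321 to 4.77 CPM. Inland 4leaf plant 2 was the only one of its group inside the coastal range, since the next highest inland plant was at 2.03 CPM. The LFC at 4leaf was 2.29 ± 0.35 (4.90-fold, adjusted p = 1.28e-07), and it was 2.74 in a fit without that plant and coastal bud plant 1.

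In buds, HKT1 was close to the floor in inland plants. Together the 10 inland bud libraries held 9 counts of HKT1, and 5 of them held 0. Pooled over these libraries, that is 0.220 CPM with an exact 95% Poisson interval of 0.10 to 0.417, which covers counting error only. Coastal buds held 118 counts in all and ran from 0.754 to 4.93 CPM, above every inland bud, whose highest value was 0.455 CPM. Groups that did not overlap between the ecotypes in buds were found for 19% of all genes. The fitted LFC was 3.00 ± 0.47 (adjusted p = 1.35e-07). Its size rests on the few inland counts and ran from 2.63 to 3.31 over 11 alternative settings. Coastal bud plant 1, at 4.93 CPM, stood above the next coastal bud at 2.41 CPM, and without it and inland 4leaf plant 2 the LFC was 2.74.

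**Figure D1:**
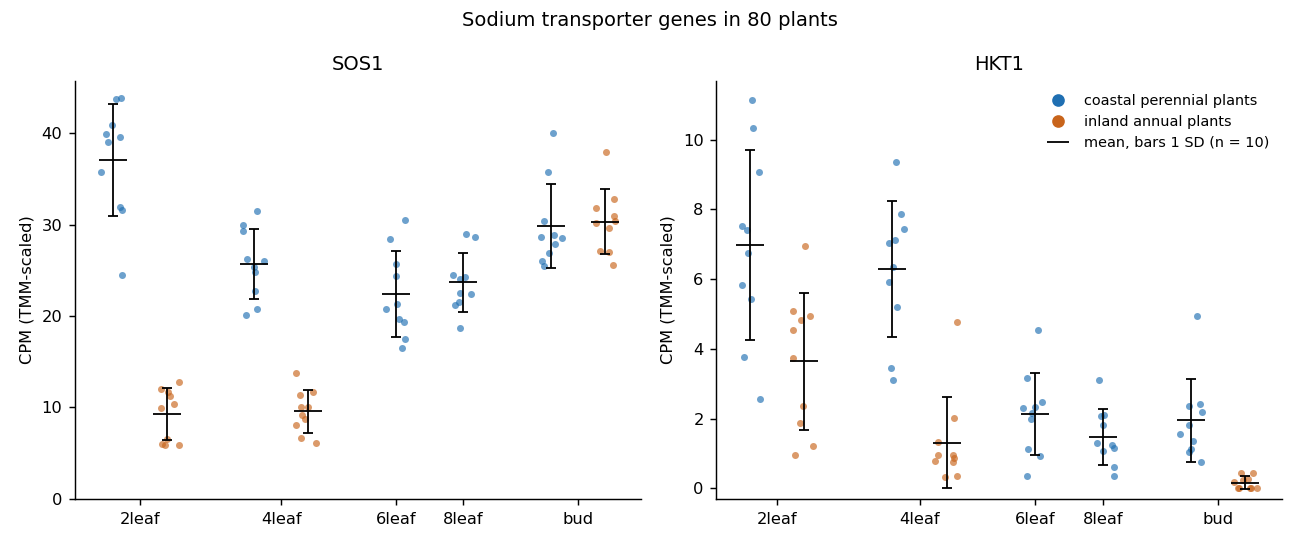
TMM-scaled CPM of SOS1 (left) and HKT1 (right) in each of 80 plants, by stage on the x axis. Points are plants (blue coastal, orange inland), and black marks are the mean and 1 SD of 10 plants. SOS1 of inland leaves lies below 14 CPM and joins the coastal range only in buds, while HKT1 of inland buds lies below 0.46 CPM.

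The kinase gene CIPK8 changed side between leaf and bud. At 2leaf it had a median of 32.3 CPM in coastal plants (22.9 to 37.2) and 25.7 CPM in inland plants (19.3 to 32.98). This was a small difference with overlapping groups, an LFC of 0.29 ± 0.11 (1.22-fold, adjusted p = 0.0278). At 4leaf the LFC of 0.13 missed the threshold, with a 95% interval of -0.09 to 0.35 and an adjusted p of 0.324. In buds CIPK8 was lower in coastal plants, with a median of 35.6 CPM (26.7 to 47.1) against 50.1 CPM (35.8 to 62.6) in inland plants. The LFC there was -0.48 ± 0.11 (1.39-fold, adjusted p = 9.27e-05), and the ranges overlapped.

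The calcium sensor genes differed between the ecotypes in opposite directions. CBL10, the shoot sensor of Arabidopsis, was higher in coastal plants at 4leaf, where it ran from 8.37 to 17.8 CPM (median 13.5) against 5.78 to 8.71 CPM (median 7.28) in inland plants. Its LFC at 4leaf was 0.83 ± 0.18 (1.78-fold, adjusted p = 0.000109), and only the lowest coastal plant lay inside the inland range. At 2leaf and in buds its LFC was 0.12 in both cases, with 95% intervals of -0.23 to 0.48 and -0.22 to 0.46 (adjusted p = 0.598 and 0.553).

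SOS3, the sensor best known from roots, was the only one of the 5 genes that was lower in coastal plants at 4leaf. It ran from 1.73 to 4.33 CPM in coastal plants (median 3.29) and from 3.13 to 9.93 CPM in inland plants (median 6.76). Its LFC was -1.11 ± 0.26 (2.15-fold, adjusted p = 0.000263). In buds its median was 2.51 CPM in the coastal line and 5.19 CPM in the inland line, and the LFC was -0.85 ± 0.25 (adjusted p = 0.00262). At 2leaf, where coastal plants ran from 0.454 to 6.34 CPM, the LFC was -0.31 with a 95% interval of -0.87 to 0.26 (adjusted p = 0.385). SOS3 is a gene of low counts, with group medians of 8.5 to 19.5 counts per library.

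**Figure D2:**
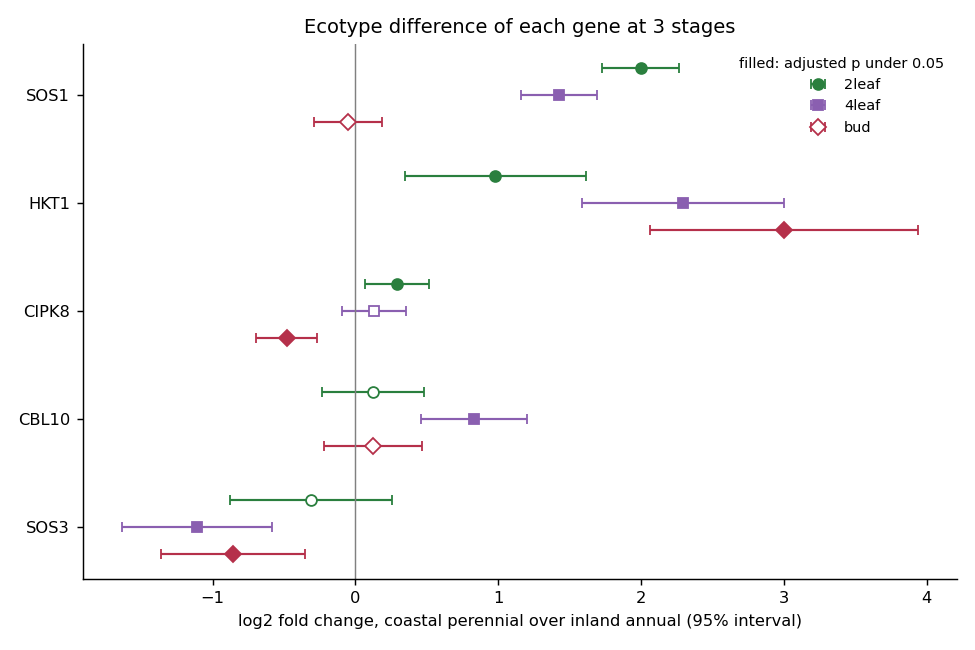
LFC of coastal over inland plants (x axis, log2) for each gene at 2leaf (circles), 4leaf (squares) and bud (diamonds), with 95% intervals from the fit of 60 libraries. Filled marks passed the adjusted p threshold of 0.05. SOS1 moves from 2.00 at 2leaf to -0.05 in buds, HKT1 stays above 0 throughout, and SOS3 stays below 0.

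Counted together, 3 of the 5 genes differed between the ecotypes at 2leaf, all 3 higher in coastal plants. Of all genes tested, 50.2% differed there, 25.5% higher and 24.7% lower. At 4leaf 4 of 5 differed, 3 higher and 1 lower in coastal plants, against 57.5% of all genes (28.6% higher, 28.8% lower). In buds 3 of 5 differed, 1 higher and 2 lower, against 64% of all genes (31.4% higher, 32.7% lower). The median LFC of the 5 genes was 0.29 at 2leaf, 0.83 at 4leaf and -0.05 in buds, and that of all genes lay within 0.01 of 0 at each of these stages. Buds of the lines also differed in the hub genes, with a median sum of 642 CPM in coastal and 2264 CPM in inland buds for the cell wall hubs, and of 618 and 384 CPM for the photosynthesis hubs. At 4leaf, 6 cell division hub genes had a median sum of 336 CPM in coastal plants (169 to 561). In inland plants it was 87.6 CPM (43.4 to 501). The photosynthesis hubs were at 4853 and 4974 CPM at that stage. The part of these in the bud differences of HKT1, CIPK8 and SOS3, and in the 4leaf differences, was not tested. With so large a share of the transcriptome differing between the lines, these counts do not set the 5 genes apart. By size, 8.86% of all genes had a larger LFC than SOS1 at 2leaf in either direction, and 4.19% a larger one than HKT1 in buds.

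Within the inland annual line, the change from leaf to bud was steep for the transporters, and they moved in opposite directions. SOS1 rose from a mean of 9.26 ± 2.82 CPM at 2leaf (SD, n = 10) to 30.3 ± 3.52 CPM in buds, with no overlap between the groups. The LFC was 1.76 ± 0.13 (3.39-fold, adjusted p = 2.44e-18). HKT1 fell from 3.65 ± 1.96 CPM to 0.160 ± 0.187 CPM, also with no overlap, and its fitted LFC of -3.84 ± 0.47 (adjusted p = 8.44e-11) rests on the 9 bud counts. CIPK8 rose from 25.5 ± 3.84 to 49.2 ± 9.07 CPM, with an LFC of 1.00 ± 0.11 (adjusted p = 4.5e-12) and again no overlap. Groups without overlap in this comparison were found for 34.5% of all genes.

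The sensors moved less between inland leaf and bud. SOS3 had an LFC of 0.57 ± 0.27 that just passed the threshold (adjusted p = 0.0495), and 7 of 11 alternative settings lost that call. CBL10 had a bud LFC of -0.14 with a 95% interval of -0.50 to 0.22 (adjusted p = 0.495). Altogether 4 of the 5 genes changed, 3 upwards and 1 downwards, and 73.8% of all genes did (41.7% upwards, 32.1% downwards). The median LFC was 0.57 over the 5 genes and 0.16 over all genes, so leaf-to-bud changes are read against a general shift of about that size. The photosynthesis hubs fell from a median sum of 6122 to 384 CPM over the same step, and their part in these changes was not tested.

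In coastal perennial plants, HKT1 and SOS1 were lower in buds than at 2leaf. HKT1 fell from 6.98 ± 2.73 to 1.95 ± 1.19 CPM (LFC -1.82 ± 0.31, adjusted p = 5.6e-07). SOS1 was lower in buds, at 29.8 ± 4.58 against 37.1 ± 6.13 CPM (LFC -0.29 ± 0.12, adjusted p = 0.029), in ranges that overlapped. That small SOS1 call changed in 3 of 12 alternative settings. It was lost without a filter on low counts (-0.25, adjusted p = 0.0799) and with a filter blind to the groups (-0.16, adjusted p = 0.222). It turned to 0.56 when library size alone set the scale, a setting under which the median of all genes moved from 0.15 to 1.00. CIPK8 had an LFC of 0.23 (adjusted p = 0.0543) that missed the threshold here and passed in 4 of 12 alternative settings, each time upwards. CBL10 had an LFC of -0.14 (adjusted p = 0.475) and SOS3 of 0.03 (adjusted p = 0.941). In this comparison 2 of 5 genes changed, both downwards, against 67.7% of all genes (39.1% upwards, 28.6% downwards). None of the 5 had groups that did not overlap, against 30% of all genes.

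The leaf-to-bud change itself differed between the ecotypes for 3 of the 5 genes, 1 with a positive and 2 with a negative value, against 36% of all genes (18.5% positive, 17.5% negative). SOS1 had the largest such interaction of the 5 by F statistic, an LFC of -2.05 ± 0.18 for the coastal relative to the inland change (adjusted p = 3.42e-14). Its inland plants rose, while the coastal LFC was -0.29, a call that depended on the settings. For HKT1 the interaction was 2.02 ± 0.57 (adjusted p = 0.00402), and HKT1 fell in both lines. Within the 4 library pools, into which plants of all groups had been spread, it ran from -0.03 to 4.80 and was above 0 in 3 of 4. For CIPK8 the leaf-to-bud difference was smaller in coastal plants, with an interaction of -0.77 ± 0.16 (adjusted p = 6.9e-05). For CBL10 the estimate was -0.00 with a 95% interval of -0.50 to 0.50, and for SOS3 -0.55 with an interval of -1.31 to 0.21 (adjusted p = 0.998 and 0.269).

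**Figure D3:**
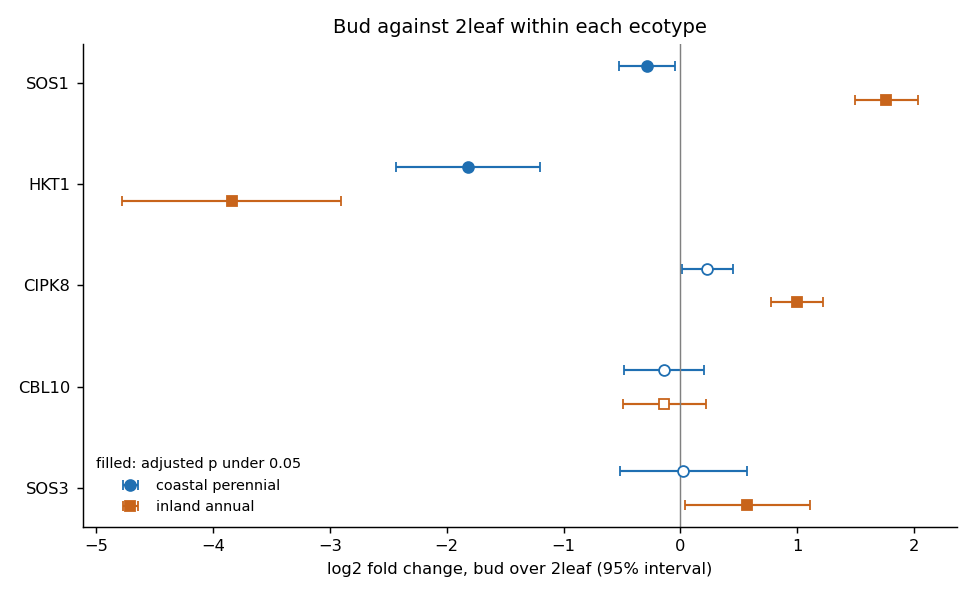
LFC of bud over 2leaf (x axis, log2) within coastal (blue circles) and inland plants (orange squares), with 95% intervals. Filled marks passed the adjusted p threshold of 0.05. For SOS1 the lines point to opposite sides, at -0.29 and 1.76, and for HKT1 both fall, to -1.82 and -3.84.

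The early leaf stages of the inland line, 2leaf and 4leaf, gave a different set of genes. CBL10 fell from 9.84 to 17.8 CPM at 2leaf (lowest and highest plant) to 5.78 to 8.71 CPM at 4leaf, so that the groups did not overlap. That was so for 1.23% of all genes in this comparison. Its LFC was -0.86 ± 0.19 (1.82-fold, adjusted p = 0.000587), and it stood at -0.87 to -0.64 over the alternative settings. SOS3 rose from a median of 3.30 CPM (1.69 to 6.44) to 6.76 CPM, with an LFC of 0.87 ± 0.27 (adjusted p = 0.016). Its LFC was above 0 within 3 of the 4 library pools and -0.10 within the other. HKT1 fell from a median of 4.14 to 0.909 CPM, an LFC of -1.49 ± 0.38 (adjusted p = 0.00332).

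SOS1 and CIPK8 gave LFC values near 0 between inland 2leaf and 4leaf, at 0.04 (95% interval -0.24 to 0.33) and 0.01 (-0.21 to 0.24). Their adjusted p values were 0.89 and 0.964. In all, 3 of 5 genes changed, 2 downwards and 1 upwards, against 16.9% of all genes (8.09% downwards, 8.81% upwards).

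Whether the 2leaf to 4leaf step differed between the ecotypes did not pass the test for any of the 5 genes. With edgeR 0 of 5 passed after adjustment, 4 had an unadjusted p under 0.05, voom with limma called 0 and DESeq2 called 1, and 6.48% of all genes passed. SOS1 came closest, with an interaction of -0.57 ± 0.19 (adjusted p = 0.052). Its LFC over this step was -0.52 in coastal and 0.04 in inland plants. In 9 of 12 alternative settings SOS1 did pass, with adjusted p values from 0.0234 to 0.0749 over the 12. HKT1 gave 1.31 ± 0.48 (adjusted p = 0.0852). In the fit without inland 4leaf plant 2 and coastal bud plant 1 it gave 1.77. These plants were picked on their HKT1 values after the data were seen, so no p is given for that fit. CBL10 gave 0.71 ± 0.26 (adjusted p = 0.0857), SOS3 -0.80 ± 0.39 (adjusted p = 0.231) and CIPK8 -0.16 ± 0.16 (adjusted p = 0.636).

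**Figure D4:**
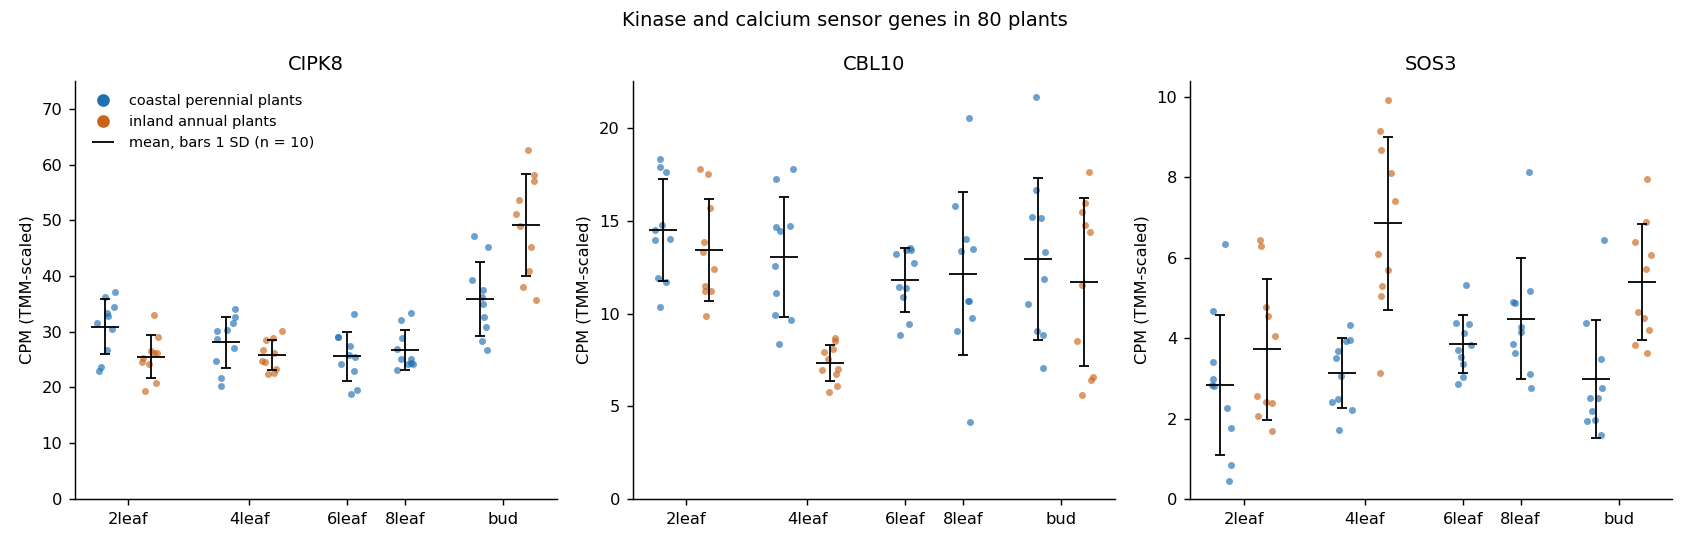
TMM-scaled CPM of CIPK8, CBL10 and SOS3 in each of 80 plants, by stage on the x axis. Points are plants (blue coastal, orange inland), and black marks are the mean and 1 SD of 10 plants. CIPK8 is highest in inland buds (mean 49.2 CPM), CBL10 lowest in inland 4leaf (7.34 CPM) and SOS3 highest in inland 4leaf (6.85 CPM).

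The coastal perennial line passes through additional leaf stages before it buds, and over these stages HKT1 showed a drop. It ran from 3.11 to 9.36 CPM at 4leaf (median 6.69), from 0.353 to 4.53 CPM at 6leaf (median 2.23) and from 0.351 to 3.11 CPM at 8leaf (median 1.27). The main step was that from 4leaf to 6leaf, with an LFC of -1.54 ± 0.28 (2.91-fold, adjusted p = 0.000311, 14662 genes tested). A larger change in either direction was found for 0.60% of the genes in that comparison. From 2leaf to 4leaf the LFC of HKT1 was -0.16 (95% interval -0.67 to 0.35), and from 6leaf to 8leaf -0.61 (-1.27 to 0.04). From 2leaf to 8leaf it fell by 2.32 ± 0.29 on the log2 scale (adjusted p = 1.65e-08).

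SOS1 took its main coastal step earlier. Its median was 39.3 CPM in 2leaf, 25.7 CPM in 4leaf, 21.04 CPM in 6leaf and 23.3 CPM in 8leaf plants. The LFC was -0.52 ± 0.11 from 2leaf to 4leaf (adjusted p = 0.00114), -0.20 from 4leaf to 6leaf (adjusted p = 0.214) and 0.07 from 6leaf to 8leaf (adjusted p = 0.876). From 2leaf to 8leaf it was -0.65 ± 0.11 (adjusted p = 4.63e-06), though library size alone as the scale reduced it to -0.22 (adjusted p = 0.112).

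SOS3 went the other way over the coastal leaves. Its mean went from 2.84 ± 1.74 CPM in 2leaf plants through 3.13 ± 0.881 and 3.85 ± 0.728 to 4.49 ± 1.50 CPM in 8leaf plants. The LFC from 2leaf to 8leaf was 0.59 ± 0.24 (adjusted p = 0.035). That call was lost in 2 of 11 alternative settings. In the fit of coastal leaves without coastal 8leaf plant 10, at 8.14 CPM, the LFC was 0.45 (adjusted p = 0.108). Without a filter on low counts it was 0.59 (adjusted p = 0.0521). CIPK8 and CBL10 had LFC values of -0.22 (adjusted p = 0.0921) and -0.24 (adjusted p = 0.231) from 2leaf to 8leaf.

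Over the steps, 1 of 5 genes changed from 2leaf to 4leaf (SOS1, downwards). Of all genes, 15.4% did, 7.86% upwards and 7.56% downwards. From 4leaf to 6leaf 1 of 5 changed (HKT1, downwards), against 16.7% of all genes (7.54% upwards, 9.15% downwards). From 6leaf to 8leaf edgeR called 0 of 5 and 0.689% of all genes. For that last step 0 of 5 had an unadjusted p under 0.05, and voom with limma and DESeq2 also called 0. From 2leaf to 8leaf 3 of 5 changed, 1 upwards and 2 downwards, against 47.4% of all genes (24% upwards, 23.5% downwards). None of the 5 had groups that did not overlap, against 7.59% of all genes. A joint F test of the 4 coastal leaf stages called SOS1 (adjusted p = 1.12e-06) and HKT1 (adjusted p = 2.94e-09), 2 of 5, against 48.6% of all genes. CIPK8, CBL10 and SOS3 had adjusted p values of 0.116, 0.427 and 0.0916 in it. Over the same stages the summed level of 6 cell division hub genes went from a median of 181 CPM at 2leaf to 696 CPM at 8leaf, and that of the photosynthesis hubs from 5539 to 3666 CPM. Their part in these results was not tested.

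**Figure D5:**
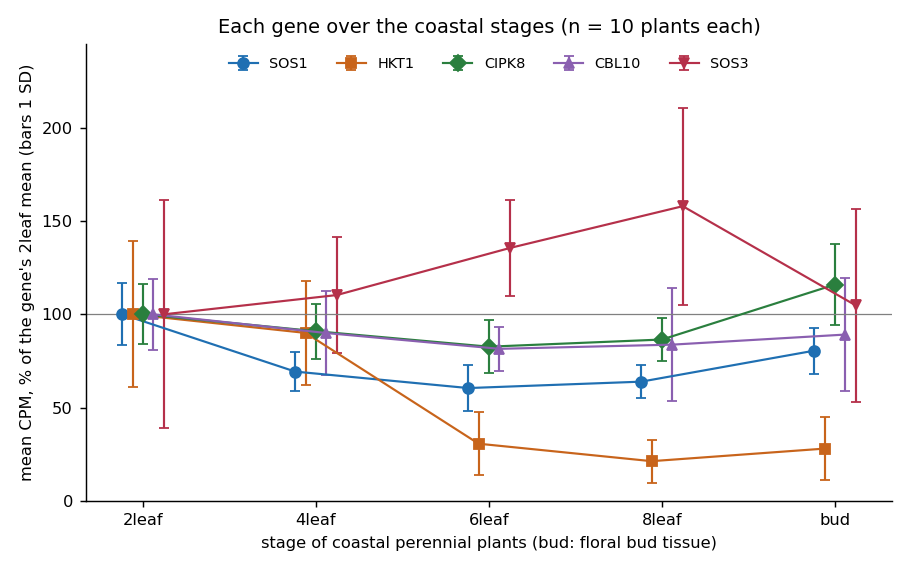
Mean CPM of each gene in coastal perennial plants, as a percent of its own 2leaf mean (y axis), from 2leaf to bud (x axis). Bars are 1 SD of 10 plants. HKT1 is at 30.6% by 6leaf and 27.99% in buds, SOS1 is at 60.5% at 6leaf and 80.5% in buds, and SOS3 reaches 158% at 8leaf.

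Between the last coastal leaf stage and the coastal bud, SOS1 was higher in buds, with an LFC of 0.33 ± 0.12 (adjusted p = 0.00822). Its medians were 23.3 CPM at 8leaf and 28.5 CPM in buds. CIPK8 was also higher in buds, with medians of 25.1 and 35.6 CPM (LFC 0.42 ± 0.10, adjusted p = 0.000255). SOS3 was lower, with medians of 4.22 and 2.51 CPM (LFC -0.60 ± 0.23, adjusted p = 0.0156), although within 1 library pool its LFC was 0.14. HKT1 had an LFC of 0.45 (95% interval -0.23 to 1.14) and CBL10 of 0.07 (-0.27 to 0.42). Here 3 of 5 genes changed, 2 upwards and 1 downwards, against 71.7% of all genes (37.2% upwards, 34.5% downwards).

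The last leaf stage sampled before budding was 8leaf in the coastal line and 4leaf in the inland line, and these were set against each other. These leaves differed in the hub genes. The cell division hubs had a median sum of 696 CPM in coastal 8leaf and 87.6 CPM in inland 4leaf. For the photosynthesis hubs it was 3666 and 4974 CPM. The part of these in the differences below was not tested. SOS1 again did not overlap, at 18.7 to 28.99 CPM in coastal 8leaf and 6.11 to 13.8 CPM in inland 4leaf (20.8% of all genes did not overlap). Its LFC was 1.30 ± 0.13 (2.45-fold, adjusted p = 1.16e-14). CBL10 was higher in coastal 8leaf (LFC 0.73 ± 0.19, adjusted p = 0.000406), and SOS3 was lower (LFC -0.59 ± 0.23, adjusted p = 0.0203). HKT1, which was 4.90-fold higher in coastal plants at the shared 4leaf stage, had an LFC of 0.16 here, with a 95% interval of -0.63 to 0.95 (adjusted p = 0.744). CIPK8 had one of 0.05 (-0.16 to 0.27). In this comparison 3 of 5 genes differed, 2 higher and 1 lower in the coastal leaves, against 66.1% of all genes (32.9% higher, 33.2% lower).

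Put in order over the 8 groups, the mean level of SOS1 was highest in coastal 2leaf (37.1 ± 6.13 CPM), followed by inland bud (30.3), coastal bud (29.8), coastal 4leaf (25.7), coastal 8leaf (23.7) and coastal 6leaf (22.4). Inland 4leaf (9.57 ± 2.37) and inland 2leaf (9.26 ± 2.82) came last. Of the 7 pairs of neighbours in that order, 2 differed: coastal 2leaf from inland bud (LFC 0.28 ± 0.12, adjusted p = 0.0247, where 79% of 17136 genes differed) and coastal 6leaf from inland 4leaf (LFC 1.22 ± 0.13, adjusted p = 1.63e-13, where 64.8% of all genes did). The second is the one wide gap in the order, between inland leaves and all other groups.

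HKT1 ran from coastal 2leaf (6.98 CPM) through coastal 4leaf (6.29), inland 2leaf (3.65), coastal 6leaf (2.14), coastal bud (1.95), coastal 8leaf (1.48) and inland 4leaf (1.31) to inland bud (0.160). Of its 7 neighbouring pairs 2 differed, coastal 4leaf from inland 2leaf (LFC 0.80 ± 0.32, adjusted p = 0.0261, 55.9% of all genes) and inland 4leaf from inland bud (LFC 2.41 ± 0.53, adjusted p = 4.92e-05, 68.6% of all genes). None of the pairs among coastal 6leaf, coastal bud, coastal 8leaf and inland 4leaf passed the test, with adjusted p values from 0.0778 to 0.744. Of all genes, 0.619% differed between coastal 6leaf and 8leaf. In the others the share was 64.8% to 71.7%, with none counted for coastal bud and inland 4leaf. These groups held 37 to 118 counts of HKT1 each, so a difference among them could be missed.

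For CIPK8 only the top pair differed, inland bud (49.2 CPM) from coastal bud (35.9 CPM), with an adjusted p of 0.000118 (64.9% of all genes differed). The 6 other groups lay between 25.5 and 30.9 CPM, and no neighbours among them differed, where 10.6% to 66.1% of all genes did. CBL10 lay between 14.5 CPM in coastal 2leaf and 11.7 CPM in inland bud over 7 groups. Only its lowest group, inland 4leaf at 7.34 CPM, differed from its neighbour (LFC 0.66 ± 0.19, adjusted p = 0.00146, 68.6% of all genes). SOS3 ran from 6.85 CPM in inland 4leaf to 2.84 CPM in coastal 2leaf, and edgeR called 0 of its 7 neighbouring pairs, with adjusted p values from 0.155 to 0.991. Over these pairs 0.619% to 81.1% of all genes differed. Between the ends of the SOS3 order, the LFC was -1.19 ± 0.25 for coastal 2leaf over inland 4leaf. These 2 groups were picked as the lowest and highest of the same means, so no p is given for them.

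The spread between plants was set beside counting error, computed from the mean count of each group alone. That figure treats the libraries as equally deep, so it is too low where depths differ. In coastal 2leaf, SOS3 had a coefficient of variation of 61.2%, and counting at that depth alone would give 32.8%. For HKT1 in inland buds, whose libraries ran from 1256776 to 6090402 counts, the figures were 117% and 105%. For SOS1 in inland buds they were 11.6% and 8.98%. Some groups varied less than that, such as CBL10 in inland 4leaf (13.5% and 21.2%) and SOS3 in coastal 6leaf (18.9% and 25.1%). Membership of a group accounted for 87.6% of the variance of log2 CPM of SOS1, 75.4% for HKT1, 65.5% for CIPK8, 41.2% for SOS3 and 32.5% for CBL10. Within groups, library pool accounted for 0.442% (CBL10) to 13.5% (CIPK8) of what was left.

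Plants of 1 group that were high for one gene were not detectably high or low for another. Over the 10 pairs of genes, with log2 CPM centred on each group's mean in the 80 libraries, 0 passed Benjamini-Hochberg adjustment in a two-sided permutation test (100000 permutations within groups), and 2 had an unadjusted p under 0.05. The strongest was HKT1 with CIPK8, with a Pearson's r of -0.24 (permutation p = 0.0317, adjusted 0.199) and a Spearman's rho of -0.19 (permutation p = 0.102, adjusted 0.511). Its r was -0.18 without the 2 libraries farthest from the median of the centred HKT1 values. Next came SOS1 with CBL10, with r = 0.20 (permutation p = 0.0399, adjusted 0.199) and rho = 0.19 (permutation p = 0.0733, adjusted 0.511). Its r was 0.17 without the 2 libraries farthest from the median of the centred SOS1 values. As a description over the 8 group means, r was -0.90 between CBL10 and SOS3, -0.77 between HKT1 and SOS3, 0.56 between SOS1 and CIPK8 and 0.08 between SOS1 and HKT1. The 8 means share the 2 lines and the leaf and bud tissues.

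Other genes had profiles over the 8 group means much like those of the 5. Compared with 15183 genes whose mean count was 10 or more, the 3 most like SOS1 were Migut.N01878 (r = 0.99), Migut.M01802 (0.98) and Migut.A00135 (0.98). Migut.M01802 was at 117 CPM in coastal 2leaf, 27.7 in inland 2leaf and 79.7 in inland bud. For HKT1 they were Migut.A01114 (0.96), Migut.N01219 (0.96) and Migut.K00161 (0.95), and Migut.A01114 went from 17.3 CPM in coastal 2leaf to 1.33 CPM in inland bud. For CIPK8 they were Migut.N03048 (0.99), Migut.N01818 (0.99) and Migut.B00256 (0.98), all 3 with their highest mean in inland bud. For CBL10 they were Migut.I00518 (0.94), Migut.D00122 (0.92) and Migut.M01327 (0.91). For SOS3 they were Migut.N00621 (0.96), Migut.M00982 (0.95) and Migut.H01508 (0.95). Picking the highest of 15183 over only 8 means gives a high r by itself. Over the 80 libraries the r of these genes was 0.68 to 0.77 for SOS1, 0.74 to 0.81 for HKT1 and 0.72 to 0.77 for CIPK8. It was 0.32 to 0.47 for CBL10 and 0.31 to 0.52 for SOS3. With correlation over the 80 libraries in place of the group means, only Migut.A01114 stayed among the 3 most like its gene. No gene names were paired with these identifiers.

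The genes with neighbouring identifiers were also compared between the ecotypes. On the lower side of SOS1, Migut.E00569 had an LFC of 0.08 at 2leaf (adjusted p = 0.572), and on the upper side Migut.E00571 one of 0.66 (adjusted p = 0.0494). Both were well below the 2.00 of SOS1. Of the 5 tested genes within 3 identifiers of SOS1, 1 was higher and 0 were lower in coastal plants at 2leaf. For HKT1 these counts were 2 and 2 of 5, and for CIPK8 2 and 0 of 5. For CBL10 they were 2 and 2 of 5, and for SOS3 0 and 1 of 6. Of all genes tested, 25.5% were higher and 24.7% lower at that stage. On the lower side of HKT1, the adjacent Migut.L01904 was not tested, with 285 counts over all libraries. The nearest tested gene there, Migut.L01903, was higher in coastal plants at 2leaf (LFC 1.26, adjusted p = 2.42e-05). So was Migut.L01906 (LFC 7.15, adjusted p = 1.08e-15), a gene with 422 counts over all libraries. Migut.L01908, 3 identifiers away, was lower (LFC -3.26, adjusted p = 1.49e-28). Next to CIPK8, Migut.N02832 had an LFC of 0.34 (adjusted p = 0.398) and Migut.N02834 of 0.91 (adjusted p = 1.11e-05).

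At 4leaf, 28.6% of all genes were higher and 28.8% lower in the coastal line. Of the 5 tested genes within 3 identifiers of CBL10, 2 had a higher and 2 a lower level there. Those next to it were lower, Migut.A00137 with an LFC of -0.82 (adjusted p = 2.99e-09) and Migut.A00139 with -2.93 (adjusted p = 1.03e-13). Migut.A00136 was higher (LFC 0.66, adjusted p = 0.0275), and so was Migut.A00135, among the genes most like SOS1 (LFC 1.00, adjusted p = 0.00188). Beside SOS3, Migut.F00214 had an LFC of 0.32 (adjusted p = 0.0467) and Migut.F00216 of -0.55 (adjusted p = 2.86e-05) at 4leaf.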

How the data were processed

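The 80 samples were read by 3′-Tag-Seq in 4 library pools of 20. The authors used Cutadapt for trimming, BWA-MEM for alignment against the v2.0 reference, SAMtools for filtering and HTSeq 0.6.1 for strand-aware counting per gene. FastQC was also used. The deposited values are these raw counts, whole numbers that were not normalised. The table held 28140 genes, 6 label lines and 0 columns without a sample. None of 3160 library pairs were identical. Library totals ran from 1256776 to 6090402, and at these depths HKT1 and SOS3 had few counts in many libraries.

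Groups and plant numbers came from the sample labels. The 5 genes, the gene lists and the tests were chosen with earlier results of these data known. Tests used R 4.3.3 with edgeR 4.0.16. Low genes were removed by filterByExpr given the design, with a minimum count of 10 and a minimum total of 15, and libraries were scaled by TMM. Calls came from the quasi-likelihood F test with Benjamini-Hochberg adjustment over all genes tested and a threshold of 0.05. Ecotypes, and buds against 2leaf, were compared on 60 libraries (genotype, stage and their interaction; 16735 genes), coastal leaf stages on 40 (14662 genes), and other pairs on all 80 with 1 mean per group (17136 genes). The standard error of an LFC was its size divided by the square root of F. Genes named are the 5, the 3 most like each over the 8 group means of log2 CPM (prior count 2), and the nearest tested genes by identifier on either side. Migut.L01908 and Migut.A00136 were named after their values were seen.

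Alternatives were voom with limma 3.58.1, DESeq2 1.42.0, other scalings and filters, library pool as a term or as separate fits, a replicate block and all 80 libraries. Fits without 4 libraries picked as standing apart, and without 3 plants that stood apart for a gene, were added after seeing the data. The 4 libraries were inland 4leaf plant 4, coastal 2leaf plant 9 and inland bud plants 6 and 7. They were not the 4 farthest from their group means. The root mean square deviation in log2 CPM was 0.443 for coastal 2leaf plant 9 and 0.632 for coastal bud plant 7, which was kept. The edgeR procedure and the permutation test were tested on simulated data. No table used here pairs these identifiers with symbols (0 of 32468 reference genes), so other sodium pathway genes and all sequences were left out. The raw reads were not used here.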

Additional observations from a re-analysis of the deposited data

Results flagged for a closer look

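The change from 2leaf to bud differed between the coastal and inland lines for 3 of the 5 genes, by the interaction term of edgeR's quasi-likelihood test. The LFC of the difference was -2.05 for SOS1 (adjusted p = 3.42e-14), 2.02 for HKT1 (adjusted p = 0.00402) and -0.769 for CIPK8 (adjusted p = 6.9e-05). Over 12 alternative settings the SOS1 value ran from -2.11 to -1.92 and that of CIPK8 from -0.83 to -0.63, and over 11 settings that of HKT1 ran from 1.56 to 2.32.

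In 3 of 40 groups of 10 plants (5 genes in 8 groups), 1 plant lay far from the others by Dixon's ratio, the gap to the next plant divided by the range. For normally distributed values chance gives about 1 in 20 groups. The CPM values were not transformed, and whether that rate holds for genes of few counts such as HKT1 and SOS3 was not tested. HKT1 was at 4.93 CPM in coastal bud plant 1, where the next highest plant was at 2.41 CPM. HKT1 was at 4.77 CPM in inland 4leaf plant 2, where the next was at 2.03 CPM. SOS3 was at 8.14 CPM in coastal 8leaf plant 10, where the next was at 5.17 CPM.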

How the results depend on the processing

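Of 862 values of single genes under alternative settings, 823 kept their direction and side of the threshold or passed neither way, 14 lost and 22 gained a call, and 3 reversed. All 3 came from library size alone as the scale, under which the median of all genes between bud and 2leaf was 1.00 in coastal and 1.01 in inland plants, since TMM factors were 1.33 to 1.55 in bud libraries and 0.696 to 1.21 in leaf libraries. They were SOS1 (0.56) and CBL10 (0.70) from coastal 2leaf to bud, and CBL10 (0.72) from inland 2leaf to bud. With that scale 5 genes were called from coastal 2leaf to bud, and 4, 4 and 3 neighbouring pairs for CIPK8, CBL10 and SOS3. Within single library pools (2 or 3 plants of each group, values only), 4 called values changed sign: SOS3 between inland 2leaf and 4leaf (-0.10), coastal 8leaf and bud (0.14) and coastal 8leaf and inland 4leaf (0.13), and HKT1 in the bud interaction (-0.0335).

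The 4leaf interaction called 1 gene (SOS1) under DESeq2, RLE factors, upper-quartile factors, library size alone, filterByExpr without groups, library pool as a term, all 80 libraries and the fit without 4 libraries that stood apart. It called 2 without the 3 plants that stood apart. These plants had been picked on their own HKT1 or SOS3 values, so the added call of HKT1 is not a separate test. Filtering without groups removed HKT1 from all tests and SOS3 from those on 60 and 40 libraries. With it, 2 genes were called between the ecotypes at 4leaf, 1 in buds, 1 between inland 2leaf and 4leaf and 2 between inland 2leaf and bud. Between coastal 2leaf and bud 1 was called, which was CIPK8 (0.36, adjusted p = 0.00239), while SOS1 lost its call (-0.16, adjusted p = 0.222). In coastal leaves it called 0 between 4leaf and 6leaf, 1 between 2leaf and 8leaf and 1 over all stages. Neighbouring pairs of CIPK8 came to 2 under DESeq2, RLE factors and filterByExpr without groups. With library size alone, SOS3 lost its calls between coastal 8leaf and bud (adjusted p = 0.521) and between coastal 8leaf and inland 4leaf (adjusted p = 0.323). Without a filter, SOS1 lost its call from coastal 2leaf to bud (adjusted p = 0.0799) and CIPK8 gained one (adjusted p = 0.031), as it did with library pool as a term (adjusted p = 0.0431) and library size alone (1.09). Covariation gave 0 pairs under all 3 of its alternatives.

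Plant numbers did not pair the samples: deviations of same-numbered plants had a median correlation of -0.01 and 12 of 80 libraries correlated best with their own number. With the replicate block, the counts of genes called were the same (such as 3 at 2leaf and 4 at 4leaf) except from inland 2leaf to bud (3, without SOS3, adjusted p = 0.0536).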
